A study of Mus musculus with 13 samples.

Results

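The genes described here are 9 transcripts that mark endothelial cells or build their junctions: Cldn5, Cdh5, Pecam1, Esam, Tie1, Tek, Vwf, Emcn and Egfl7. They were chosen by name for their textbook roles, with earlier results of these data known, and they are 9 of the 55471 genes in the deposited table. All 9 were among the 15000 genes with enough counts to be tested. Levels are given in CPM, a gene's counts scaled to the same total in every library.

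Whole mouse hearts were profiled by bulk RNA-seq in 3 groups. R502W mavacamten (4 libraries) came from mice with the R502W change in cardiac myosin-binding protein C, a thick-filament protein whose human gene is often mutated in hypertrophic cardiomyopathy. These mice drank mavacamten, a small-molecule inhibitor of cardiac myosin, at 2.5 mg/kg/day for 21 weeks. R502W control (4 libraries) had the same genotype without the drug, and WT control (5 libraries) had neither the change nor the drug. An age of 24 weeks is given for all mice in the design text, while the extraction protocol names hearts of 3 and 18 weeks. Whether the R502W mice carried the change on 1 or both alleles was not stated in the sources used here. Whether each library is a different mouse is not in the labels, and the p-values reflect library-to-library spread, which may be technical. Total expected counts per library were 16001651 to 17520706 in R502W mavacamten, 15350622 to 19361103 in R502W control and 15420583 to 18218404 in WT control.

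Endothelial cells line every vessel of the heart and its chambers. VE-cadherin (Cdh5) and claudin-5 (Cldn5) join neighbouring cells at adherens and tight junctions, and PECAM-1 (Pecam1) and ESAM (Esam) are immunoglobulin-type adhesion molecules of the same contacts. The receptor tyrosine kinase TIE2 (Tek), with its partner TIE1 (Tie1), responds to angiopoietins and is known for keeping vessels quiescent. Von Willebrand factor (Vwf) is a secreted glycoprotein that binds platelets and is stored in endothelial granules, endomucin (Emcn) is a surface sialomucin of capillaries and veins, and EGFL7 (Egfl7) is a secreted factor whose gene also hosts the microRNA miR-126.

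Every one of these genes was detected in every library, and none fell below 12.01 CPM. Cldn5 was 1.63-fold higher in R502W control hearts than in WT control hearts and kept that call under nearly every alternative processing. Vwf was 1.43-fold higher and also passed the test, but lost the call in most alternatives. Tek, Tie1 and Cdh5 stood above WT in all R502W control libraries without passing the adjusted test. Pecam1, Emcn, Egfl7 and Esam did not pass it either, and Esam lay below WT in all R502W control libraries. No gene passed the test between treated and untreated R502W hearts. In whole tissue, a change in the number of endothelial cells and a change in RNA per cell cannot be told apart.

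Some libraries stood apart. The summed level of 4 lung epithelial markers was 139 CPM in R502W mavacamten 1, 353 CPM in WT control 2 and 557 CPM in WT control 3, and at most 22.2 CPM in the other 10 libraries, with the alveolar marker Sftpc at 0 in all of R502W control and WT control and Sftpb at 0 in all of R502W control. WT control 2 also had 270 CPM of 9 lymphocyte markers, against at most 37.5 CPM elsewhere. The atrial gene Bmp10 was at 6.23 CPM in R502W mavacamten 3, 1.57 CPM in R502W control 1 and 8.33 CPM in WT control 3, against 307 to 672 CPM in the other 10. The summed level of 6 atrial markers, Bmp10 among them, was 3077, 5323 and 6363 CPM in these libraries, in the same order. The group ranges were 3077 to 6399 CPM in R502W mavacamten, 4265 to 8302 CPM in R502W control and 3830 to 8309 CPM in WT control. Of these libraries only R502W mavacamten 3 was thus the lowest of its group by that sum. R502W mavacamten 4 had 1404 CPM of the interferon-induced GTPase gene Iigp1, against 21.5 to 48.8 CPM in the other 12, and 91.5 CPM of the chemokine gene Cxcl9, against 1.81 to 6.0 CPM. Results are given with and without these libraries where they change.

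The promoter windows of the genes were looked up to show the sequence at the starts of those that separated by genotype and those that did not. RefSeq windows of GRCm38.p6, from 250 bases before to 50 bases after an annotated start, were matched for 5 of the 9 genes. Cldn5, Tie1, Tek and Emcn had 1 window each and Egfl7 had 3, while Cdh5, Pecam1, Esam and Vwf are named only. Both strands were searched for AGGAAG and CGGAAG, and for GGGCGG, the GC box. AGGAAG and CGGAAG are forms of the core bound by ETS-family factors, which include the endothelial regulators ERG and FLI1. Other forms of that core were not searched for and can be present in windows without a match. Capitals mark every match, so a match on the other strand shows as CTTCCT or CCGCCC, and each window is written 5′ to 3′ on the gene's own strand. Cldn5 lies on the + strand (window chr16:18776597-18776896), Tie1 on the - strand (window chr4:118489800-118490099), Tek on the + strand (window chr4:94739039-94739338) and Emcn on the + strand (window chr3:137340828-137341127).
Cldn5: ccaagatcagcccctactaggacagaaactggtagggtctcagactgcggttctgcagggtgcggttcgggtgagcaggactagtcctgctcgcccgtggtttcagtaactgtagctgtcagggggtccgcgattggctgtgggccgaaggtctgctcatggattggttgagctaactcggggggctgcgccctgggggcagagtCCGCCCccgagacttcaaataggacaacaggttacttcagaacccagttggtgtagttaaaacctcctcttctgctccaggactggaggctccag
Tie1: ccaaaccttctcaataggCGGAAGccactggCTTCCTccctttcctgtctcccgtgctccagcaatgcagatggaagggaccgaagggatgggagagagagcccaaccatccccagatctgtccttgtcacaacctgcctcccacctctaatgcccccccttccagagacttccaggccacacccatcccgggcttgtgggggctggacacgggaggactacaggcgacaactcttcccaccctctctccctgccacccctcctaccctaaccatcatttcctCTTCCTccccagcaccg
Tek: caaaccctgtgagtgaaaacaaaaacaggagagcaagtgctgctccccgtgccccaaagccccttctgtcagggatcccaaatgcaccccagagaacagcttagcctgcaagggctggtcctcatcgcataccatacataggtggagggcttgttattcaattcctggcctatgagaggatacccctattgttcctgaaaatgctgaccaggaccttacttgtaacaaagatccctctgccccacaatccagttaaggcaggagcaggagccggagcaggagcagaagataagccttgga
Emcn: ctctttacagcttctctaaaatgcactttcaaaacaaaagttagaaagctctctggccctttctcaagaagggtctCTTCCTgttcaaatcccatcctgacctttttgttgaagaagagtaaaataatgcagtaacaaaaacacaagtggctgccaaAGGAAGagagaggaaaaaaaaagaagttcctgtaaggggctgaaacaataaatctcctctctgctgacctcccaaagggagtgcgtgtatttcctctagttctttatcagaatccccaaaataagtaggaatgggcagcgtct
The Cldn5 window held 1 GC box, on the other strand and starting at position -45 from the start site, and neither AGGAAG nor CGGAAG. Tie1 held 2 copies of AGGAAG and 1 of CGGAAG, Emcn held 2 copies of AGGAAG, and Tek held none of the 3 motifs. The 3 Egfl7 windows held 3, 2 and 0 copies of AGGAAG, and the last of them held 4 GC boxes, some sharing letters with the next. Such matches were common: of 32851 windows of the same length, 35.4% held AGGAAG, 16.9% held CGGAAG, 46.5% held either of these and 35.7% held GGGCGG.

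The first question was what the R502W change did to these genes, and it was addressed by comparing R502W control with WT control. Of the 9 genes, 2 rose and 0 fell at an adjusted p under 0.05 in edgeR's quasi-likelihood test, against 8.63% higher and 3.75% lower among all 15000 genes tested. The libraries of the 2 groups did not overlap for 5 genes that were higher in R502W control and for 1 that was lower, and over all genes these shares were 12.3% and 5.45%. The median log2 fold change was 0.302 over the 9 genes and -0.009 over all genes tested.

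**Figure D1:**
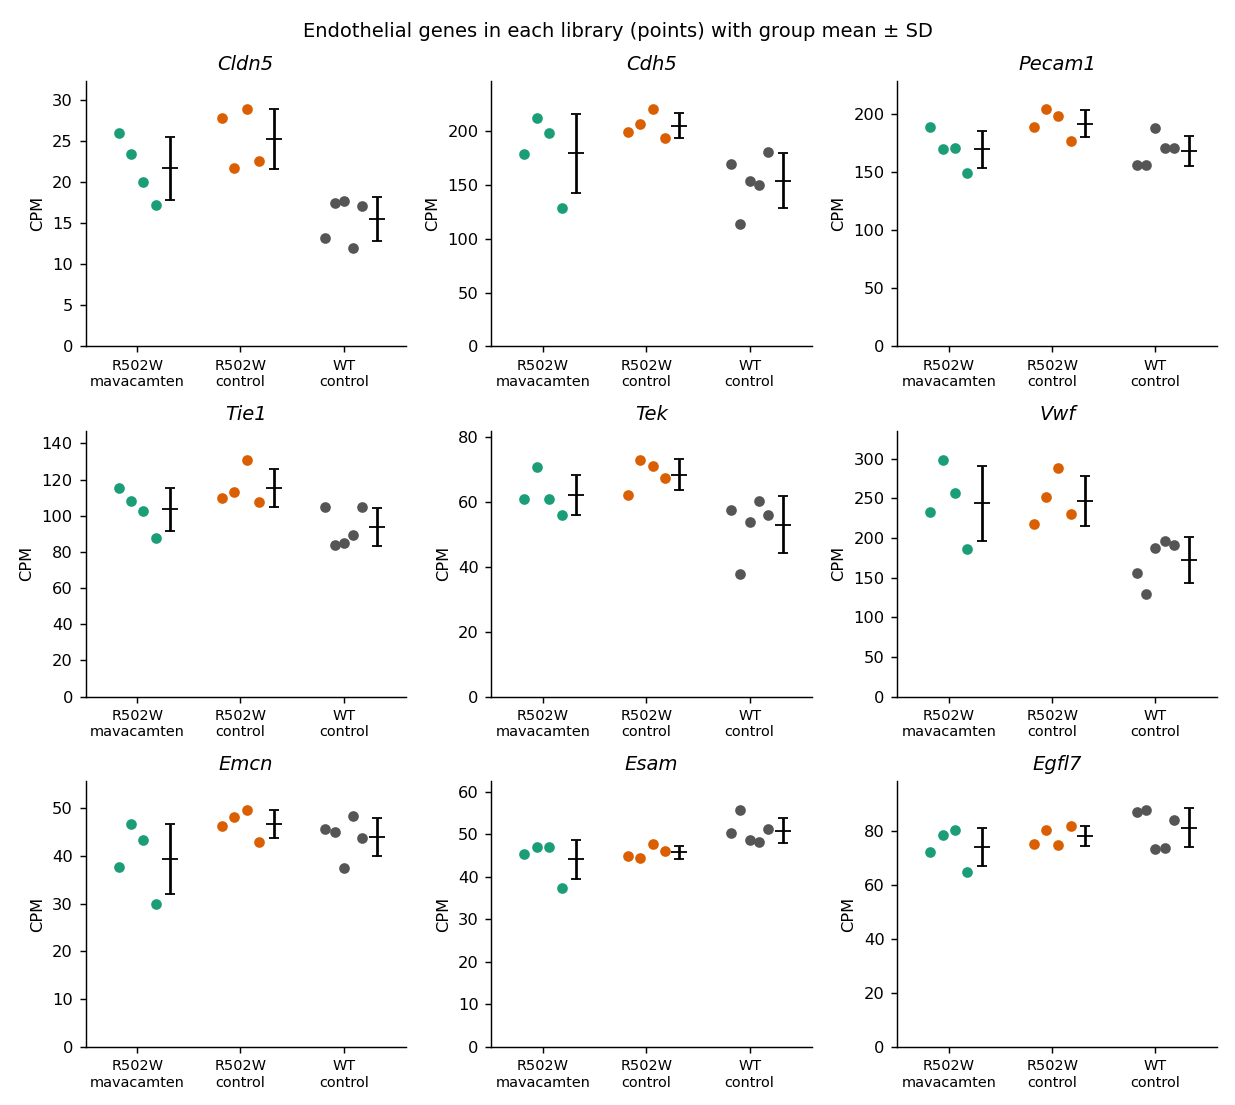
CPM of each endothelial gene in every library (points), with the mean and SD of each group (bar beside the points), on axes that start at 0 and differ between genes. All 4 R502W control libraries lie above all 5 WT control libraries for Cldn5, Cdh5, Tie1, Tek and Vwf, and below them for Esam.

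Among the junction genes, Cldn5 (chromosome 16, 18776847 to 18778262, + strand, GRCm38) rose most. It had 27.8, 21.7, 28.9 and 22.6 CPM in R502W control, against 13.2, 17.5, 17.7, 12.01 and 17.1 CPM in WT control. The lowest R502W control library was above the highest WT library. The means were 25.2 ± 3.63 and 15.5 ± 2.67 CPM (SD, n = 4 and n = 5), a 1.63-fold rise with a 95% interval of 1.30 to 2.03 (edgeR adjusted p = 0.00929). Its log2 fold change of 0.70 ± 0.15 (SE) stayed between 0.62 and 0.76 when each of the 13 libraries was left out in turn, and the adjusted p never passed 0.0381. It was also called in 8 of the 9 other settings. Without the 3 libraries low in Bmp10 (R502W mavacamten 3, R502W control 1 and WT control 3) the estimate was 0.68, with an edgeR adjusted p of 0.0706.

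Cdh5, which encodes the cadherin of endothelial adherens junctions (chromosome 8, 104101625 to 104144511, + strand), separated by genotype but did not pass. Its levels were 199, 207, 220 and 194 CPM in R502W control and 170, 114, 154, 151 and 181 CPM in WT control. The R502W libraries lay close together and all above WT, while the WT libraries were spread widely. The log2 fold change was 0.41 ± 0.14 with an edgeR adjusted p of 0.0755.

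Pecam1 (chromosome 11, 106654217 to 106750628, - strand) had 189, 204, 198 and 176 CPM in R502W control and 156, 156, 188, 171 and 171 CPM in WT control. The groups overlapped at 176 and 188 CPM. The log2 fold change was 0.19 ± 0.08, with an interval of 0.01 to 0.37 before adjustment and an edgeR adjusted p of 0.157.

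Esam (chromosome 9, 37528078 to 37538319, + strand), the other immunoglobulin-type adhesion gene, pointed the other way. It had 44.9, 44.4, 47.8 and 46.1 CPM in R502W control, against 50.3, 55.7, 48.7, 48.2 and 51.2 CPM in WT control. The groups did not overlap, but the gap between them, at 47.8 and 48.2 CPM, was narrow. The log2 fold change of -0.15 ± 0.08 had an interval of -0.32 to 0.02 and an edgeR adjusted p of 0.222. The 4 junction genes therefore ranged in log2 fold change from 0.70 to -0.15 between the same hearts.

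The receptor pair gave like estimates. Tek (chromosome 4, 94739289 to 94874976, + strand), the angiopoietin receptor, had 62.1, 73.1, 71.2 and 67.3 CPM in R502W control and 57.5, 37.8, 53.8, 60.2 and 56.0 CPM in WT control. The groups did not overlap, and 1 WT library was far below the other 4. The estimate was 0.37 ± 0.12 on the log2 scale (edgeR adjusted p = 0.059). Tie1 (chromosome 4, 118471191 to 118490061, - strand), its co-receptor, had 110, 113, 131 and 108 CPM in R502W control against 105, 83.7, 85.1, 89.4 and 105 CPM in WT control. All 4 R502W libraries were above WT, the lowest by a narrow margin. The estimate was 0.30 ± 0.10 (edgeR adjusted p = 0.0682). Neither receptor passed the threshold when any 1 library was left out, with adjusted p-values between 0.0502 and 0.186 for Tek and between 0.0516 and 0.2 for Tie1.

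Vwf (chromosome 6, 125546774 to 125686679, + strand), the platelet-binding glycoprotein, was the other gene to rise. It had 217, 251, 288 and 230 CPM in R502W control, against 156, 129, 188, 196 and 191 CPM in WT control, and the groups did not overlap. The means were 246 ± 31.0 and 172 ± 28.6 CPM (SD, n = 4 and n = 5), a 1.43-fold rise with an interval of 1.15 to 1.78 (edgeR adjusted p = 0.0354). The call was lost without any of the 4 R502W control libraries, without R502W mavacamten 1 or 3, and without WT control 1 or 2, and over all 13 such fits the estimate ran from 0.40 to 0.58 with adjusted p-values of 0.0318 to 0.116. It was also lost when the trend on transcript length was removed. Platelets carry Vwf too, and the summed level of 10 platelet and megakaryocyte markers was 15.1 to 16.5 CPM in R502W control and 14.5 to 24.5 CPM in WT control, with 0 of the 5 tested called in either direction by edgeR or DESeq2 and 1 at an unadjusted p under 0.05. The part of platelets in the result was not tested.

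Emcn (chromosome 3, 137341067 to 137432185, + strand), the capillary and venous sialomucin, had 42.8 to 49.7 CPM in R502W control and 37.5 to 48.3 CPM in WT control. Its log2 fold change was 0.09 ± 0.12, with an interval of -0.16 to 0.34 (edgeR adjusted p = 0.661). Egfl7 (chromosome 2, 26580014 to 26593120, + strand), the secreted factor, had 74.9 to 81.8 CPM in R502W control and 73.5 to 87.9 CPM in WT control. The estimate was -0.06 ± 0.08, with an interval of -0.24 to 0.12 (edgeR adjusted p = 0.694). Both genes overlapped between genotypes, and their intervals exclude a rise as large as the estimate for Cldn5. Egfl7 shares 64 exonic bases with Agpat2 on the opposite strand, and no source used here gives the strand setting of the counting. It also holds the hairpins of miR-126, which poly(A) libraries do not measure and which had 0 counts.

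**Figure D2:**
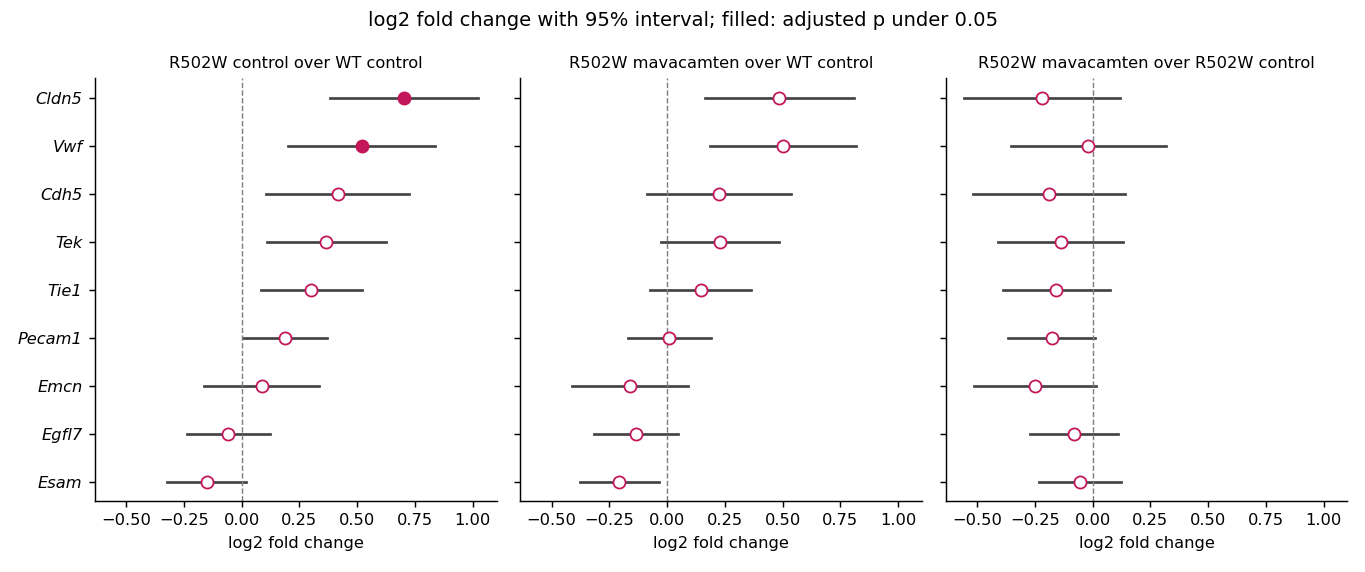
Log2 fold change (points) with 95% interval (lines) of each endothelial gene in the 3 comparisons, with filled points for an adjusted p under 0.05. Cldn5 and Vwf are the filled points and both are in R502W control over WT control, where the estimates run from 0.70 for Cldn5 to -0.15 for Esam. All 9 estimates for R502W mavacamten over R502W control lie below 0, and no interval in that panel excludes 0.

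Fold changes can vary with transcript length between libraries, so the fits were repeated with any trend of log2 expression on length removed. Over all genes this gave 778 calls higher and 529 lower with the exon-length trend removed, against 1294 and 562 with the trend kept. With the trend on the length of all annotated exons removed, the log2 fold change of Cldn5 was 0.86 (edgeR adjusted p = 0.00351) and that of Vwf was 0.16 (edgeR adjusted p = 0.429). With the trend on the longest coding transcript removed, a version added after the data were seen, the values were 0.86 (adjusted p = 0.00346) for Cldn5 and 0.15 (adjusted p = 0.481) for Vwf. The Vwf transcript is 8.83 kb, the longest of the 9, and the Cldn5 transcript is 1.42 kb, among the shortest. Under the second version Cdh5, Tek and Tie1 had 0.34, 0.25 and 0.21, Pecam1 0.15, Emcn 0.13, Egfl7 0.10 and Esam -0.04. Cldn5 thus stood further above the other 8 genes once length was taken into account, and Vwf no longer stood above them.

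**Figure D3:**
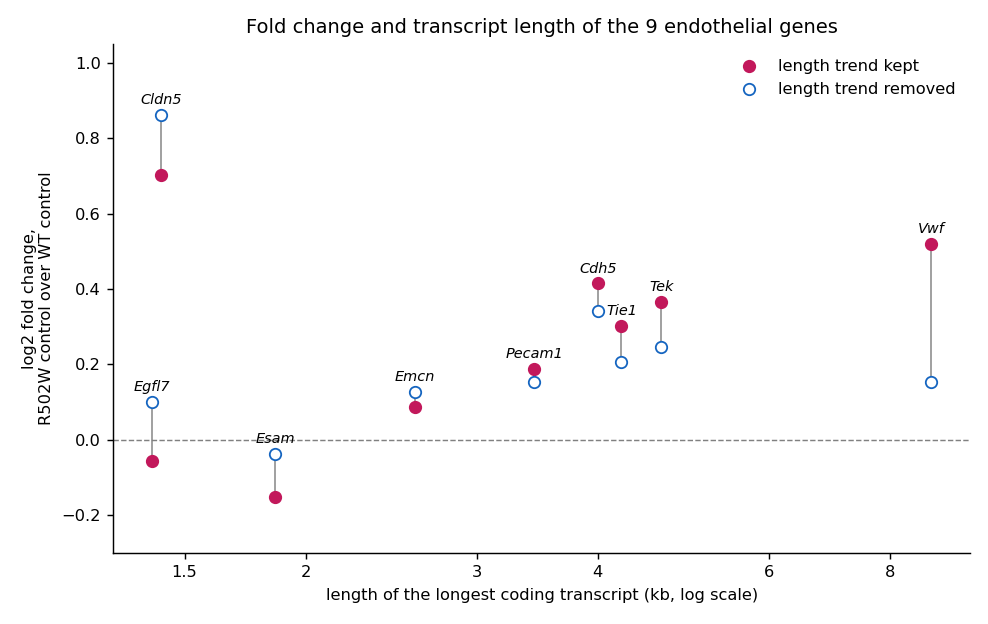
Log2 fold change of R502W control over WT control for each endothelial gene against the length of its longest coding transcript (kb, log scale), with the length trend kept (filled) and removed on that length (open). Vwf, at 8.83 kb, drops to 0.15 when the trend is removed, and Cldn5, at 1.42 kb, is at 0.86.

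Set against the mean log2 CPM of the other 8 genes in the same library, a measure that takes out what all of them share, Cldn5 was 0.50 higher in R502W control than in WT control, and its libraries overlapped. Esam was 0.47 lower and Egfl7 0.36 lower by this measure, without overlap. These differences are given as a description and were not tested. Relative to the rest of the set, the junction gene Esam and the secreted factor gene Egfl7 were the 2 that were lower in all R502W control libraries. Since 7 of the 9 genes had estimates above 0 by genotype, a gene with little change of its own comes out lower by this measure. Their own estimates were -0.15 for Esam and -0.06 for Egfl7, and -0.04 and 0.10 with the transcript-length trend removed. No share over all genes was computed for this measure.

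The second question was whether mavacamten altered these genes in R502W hearts. At an adjusted p under 0.05 edgeR called 0 of the 9, and 0.0% of all 15000 genes in either direction, while 525 genes reached an unadjusted p under 0.05 and DESeq2 called 1 gene higher and 5 lower. None of the 9 reached an unadjusted p under 0.05 in edgeR, against 1.8% higher and 1.7% lower over all genes, and DESeq2 called none of them. All 9 estimates were below 0, as were 49.2% of estimates over all genes, and the median was -0.157 against 0.004. Treated and untreated libraries overlapped for every one of the 9, and over all genes 1.29% were higher and 1.58% lower without overlap.

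Cldn5 had 26.0, 23.5, 19.97 and 17.2 CPM in R502W mavacamten, against the 21.7 to 28.9 CPM of R502W control. Treated libraries lay both within and below the untreated range. The log2 fold change was -0.22 ± 0.16, with an interval of -0.56 to 0.12 (edgeR adjusted p = 1). Vwf had 232, 299, 256 and 187 CPM in R502W mavacamten, against 217 to 288 CPM in R502W control, and its treated libraries went both above and below the untreated ones. Its log2 fold change was -0.02 ± 0.16 (interval -0.35 to 0.32). Both intervals include 0, and that of Cldn5 also covers a fall by 0.56.

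Emcn had the lowest estimate, at -0.25 ± 0.12, and Pecam1 had -0.18 ± 0.09. Emcn had 37.7, 46.6, 43.4 and 29.8 CPM in R502W mavacamten and 42.8 to 49.7 CPM in R502W control. Pecam1 had 189, 170, 171 and 149 CPM in R502W mavacamten and 176 to 204 CPM in R502W control. In both genes some treated libraries were below all untreated ones and others were not. Cdh5 had 129 to 213 CPM in R502W mavacamten, with an estimate of -0.19 ± 0.15. Tie1 had 87.6 to 115 CPM with -0.16 ± 0.11, and Tek 56.1 to 70.7 CPM with -0.14 ± 0.13. Esam, at 37.3 to 46.9 CPM, and Egfl7, at 64.8 to 80.4 CPM, were nearest to 0 after Vwf, at -0.06 ± 0.08 and -0.08 ± 0.09.

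In this comparison 1 library was low throughout. R502W mavacamten 4 was the lowest of its group for 9 of the 9 genes, and their summed level was 757 CPM there against 958 to 1056 CPM in the other 3 treated libraries. This is the library with 1404 CPM of Iigp1, and the part of that in the result was not tested. Without this library the estimates for Vwf and Esam were 0.09 and 0.02, and those of the other 7 genes were nearer to 0 than with it, from -0.02 for Egfl7 to -0.14 for Emcn, with -0.12 for Cldn5, -0.06 for Cdh5 and -0.09 for Tie1.

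**Figure D4:**
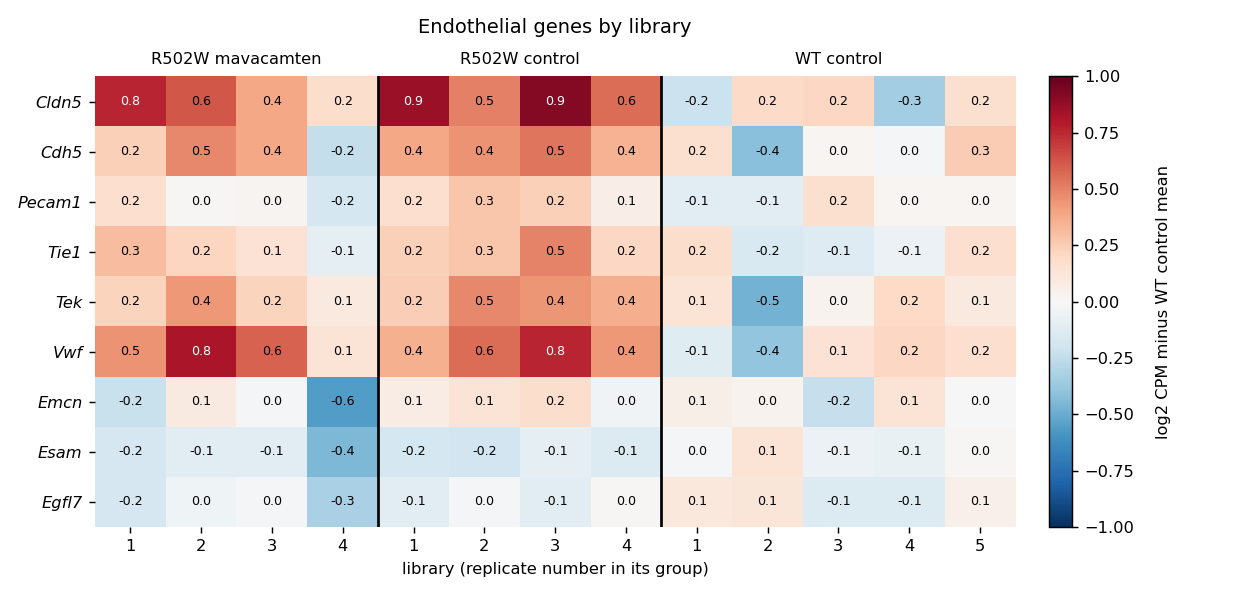
Log2 CPM minus the WT control mean for each endothelial gene (rows) in each library (columns), with red above and blue below the WT mean. R502W mavacamten 4 is the lowest of its group in every row, and Cldn5 is above the WT mean in all 8 R502W libraries.

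Treated R502W hearts were also set against WT hearts, a comparison that shares the WT libraries with the genotype comparison and the treated libraries with the drug comparison. edgeR called 0 of the 9 genes, against 5.93% higher and 2.29% lower over all genes. These are 889 genes higher and 343 lower, and with RLE factors in place of TMM they were 668 and 413. Of the 9, 3 reached an unadjusted p under 0.05 in edgeR, against 16.0% higher and 9.85% lower over all genes. DESeq2 called 3, Cldn5 and Vwf higher and Esam lower, and over all 15000 genes it called 1097 higher and 749 lower. The estimates were 0.50 ± 0.15 for Vwf (edgeR adjusted p = 0.0522) and 0.48 ± 0.15 for Cldn5 (edgeR adjusted p = 0.0628). The treated and WT libraries overlapped for both genes, at 187 and 196 CPM for Vwf and at 17.2 and 17.7 CPM for Cldn5. With either length trend removed, Cldn5 passed at an adjusted p of 0.0294 and a log2 fold change of 0.64, and Vwf had 0.15 and 0.14.

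Esam was the 1 gene whose treated libraries, at 45.2, 46.9, 46.9 and 37.3 CPM, did not overlap with WT control, at 48.2 to 55.7 CPM. Over all genes 3.79% were lower and 8.54% higher without overlap. Its log2 fold change was -0.21 ± 0.08 (edgeR adjusted p = 0.121). The other genes ran from -0.16 ± 0.12 for Emcn and -0.14 ± 0.08 for Egfl7, through 0.01 ± 0.08 for Pecam1 and 0.14 ± 0.10 for Tie1, to 0.22 ± 0.15 for Cdh5 and 0.23 ± 0.12 for Tek. The sign of the Pecam1 estimate turned under other scalings.

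Levels can be compared between genes only per length, and CPM per kb of the longest coding transcript is used for that. The order is given for that length only. All annotated exons together span 3581 bases for Egfl7, against 1391 in that transcript, and 6228 against 3441 for Pecam1. For Vwf they span 16064 against 8834, and for Cdh5 4203 against 3995. The order per kb of all exons was not computed and can differ. Over all 13 libraries Egfl7 was highest, at 56.1 ± 4.69 CPM per kb, followed by Pecam1 at 51.1 ± 4.84 and Cdh5 at 44.5 ± 8.22. Neighbours among these 3 overlapped in their library ranges. Esam at 25.3 ± 2.30, Vwf at 24.6 ± 5.57 and Tie1 at 24.4 ± 3.24 CPM per kb differed by less than 1 SD. Emcn at 16.8 ± 2.13, Cldn5 at 14.4 ± 3.72 and Tek at 13.02 ± 2.00 CPM per kb followed, again overlapping. Cldn5, the gene that rose most, was thus among the lowest in level per kb of the longest coding transcript.

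The order differed little between groups. Cldn5 was 7th in R502W mavacamten at 15.3 ± 2.72 CPM per kb, 8th in R502W control at 17.8 ± 2.57 and 9th in WT control at 10.9 ± 1.89, where it did not differ from Tek, at 11.4 ± 1.90, by more than 1 SD. Esam was 6th in both R502W groups and 4th in WT control. Vwf was 4th in both R502W groups, at 27.6 ± 5.29 with mavacamten and 27.9 ± 3.51 without it, and 6th in WT control, at 19.5 ± 3.24 CPM per kb. Esam and Vwf overlapped in R502W control and were apart in WT control, where Esam was higher per kb.

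Within groups, most pairs of these genes had positive correlations. With each gene's log2 CPM centred on its group means, the 36 pairs had Pearson correlations from -0.258 to 0.83 over the 13 libraries, with a median of 0.393 and 32 above 0. These are descriptions over libraries that share cell content and scaling, and correlations of other gene pairs were not computed for comparison. R502W mavacamten 4 was the lowest of its group for 9 of the 9 genes, and its part in these correlations was not tested. The genes named next are the highest of all those searched, and with 13 libraries high values can arise without a shared role. The gene most like the mean of all 9 was Elk3, an ETS-family factor, with r = 0.97 over 13 libraries among 13688 genes searched. Aplnr, the apelin receptor of endothelial cells, followed at 0.948, Papln at 0.931, Rasl11b at 0.928 and Dchs1 at 0.926, and the next 5 (Slc35f6, Cd33, Slc6a6, Rasl10b and Gm5532) ran from 0.924 to 0.902. Taken 1 gene at a time, the closest gene was Dbn1 for Cldn5 (0.907), Papln for Cdh5 (0.973), Smyd4 for Pecam1 (0.93), Kremen1 for Tie1 (0.909), Hmcn1 for Tek (0.963), 6430562O15Rik for Vwf (0.918), Them4 for Emcn (0.921), Tspan33 for Esam (0.959) and Cyhr1 for Egfl7 (0.946). No gene was the closest match of more than 1 member.

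Other genes of the same structures were counted from lists chosen with earlier results known. Of 25 junction partners, 6 rose, 2 fell and 17 did not pass in R502W control against WT control, against 8.63% higher and 3.75% lower over all genes. Their median log2 fold change was 0.234. Pcdh12, an endothelial cadherin-family gene, rose by 0.92 ± 0.19 (edgeR adjusted p = 0.00839), with 26.1 ± 3.06 CPM in R502W control and 13.7 ± 3.22 CPM in WT control. Heg1, a transmembrane receptor of endothelial junctions, rose by 0.60 ± 0.13 (adjusted p = 0.00872). Nectin2, an adhesion molecule, had a log2 fold change of -0.35 ± 0.09 (adjusted p = 0.0199). Cgnl1, Afdn and Ptprb also rose and Jam3 also fell. The catenins that bind VE-cadherin did not pass, with 0.16 ± 0.09 for Ctnnb1, 0.26 ± 0.10 for Ctnnd1 and 0.05 ± 0.13 for Ctnna1. Tjp1, the best-known scaffold beneath claudins, had 0.36 ± 0.20 and did not pass.

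Of 13 genes of the angiopoietin and Tie pathway, 3 rose, 0 fell and 10 did not pass, with a median of -0.053. Over all genes 8.63% were higher and 3.75% lower. Ptpn11, the phosphatase SHP-2, rose by 0.73 ± 0.09 (edgeR adjusted p = 0.000451), with 334 ± 14.3 CPM in R502W control and 201 ± 26.3 CPM in WT control. Svep1, a matrix protein that binds TIE1, rose by 1.08 ± 0.24 (adjusted p = 0.0113), and Ptprb, the phosphatase VE-PTP that acts on TIE2 and VE-cadherin, by 0.63 ± 0.17 (adjusted p = 0.0323). The ligands did not pass: the activating Angpt1 had 63.3 ± 18.9 CPM in R502W control and 69.4 ± 16.6 CPM in WT control, and Angpt2 4.06 ± 0.505 and 5.08 ± 1.10 CPM. Svep1 and Ptprb lost their calls with either length trend removed, at adjusted p-values of 0.0532 and 0.102 for Svep1 and 0.0904 and 0.31 for Ptprb.

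Of 16 tested genes of von Willebrand factor storage and haemostasis, 0 rose and 0 fell by edgeR, and DESeq2 called 0 too, with a median of 0.056 and 6 of 16 genes at an unadjusted p under 0.05, against 4361 of 15000 over all genes. Nos3, which encodes endothelial nitric oxide synthase, had 0.27 ± 0.10 (adjusted p = 0.0818), and Selp, stored in the same granules as von Willebrand factor, had -0.56 ± 0.33 (adjusted p = 0.277). Of 24 endothelial transcription factors 1 rose, Elk3, by 0.52 ± 0.11 (adjusted p = 0.00826), with 42.5 ± 2.52 CPM in R502W control and 29.6 ± 1.83 CPM in WT control. Over all genes edgeR called 8.63% higher and 3.75% lower. Erg and Fli1, factors that maintain endothelial identity, had 0.15 ± 0.11 and 0.28 ± 0.15 and did not pass.

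Of 29 general endothelial markers 6 rose and 1 fell, with a median of 0.157. For this list and those of vessel types below, the edgeR shares over all genes were 8.63% higher and 3.75% lower. The VEGF receptor genes Kdr, at 0.73 ± 0.15 (edgeR adjusted p = 0.00929), and Flt1, at 0.65 ± 0.15 (adjusted p = 0.0154), were among those that rose, as was Cd93, at 0.84 ± 0.18 (adjusted p = 0.0095). Ramp2, part of the adrenomedullin receptor, had -0.43 ± 0.10 (adjusted p = 0.0166). Among vessel types, 1 of 10 capillary markers rose (Kdr), 2 of 12 arterial ones (Sema3g at 0.58 ± 0.10 and Unc5b at 0.63 ± 0.11), 1 of 7 lymphatic ones (Prox1 at 0.88 ± 0.21, a gene that cardiomyocytes express too), and 1 of 8 each of the venous and endocardial ones, in both cases Vwf itself. By edgeR none of these 5 lists held a called fall. DESeq2 called 1 arterial marker lower (Fbln5) and also called the lymphatic marker Flt4 higher. Their median log2 fold changes were -0.207, 0.004, 0.145, -0.203 and 0.133. Endothelial genes were thus called in both directions, and most members of each list did not pass.

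**Figure D5:**
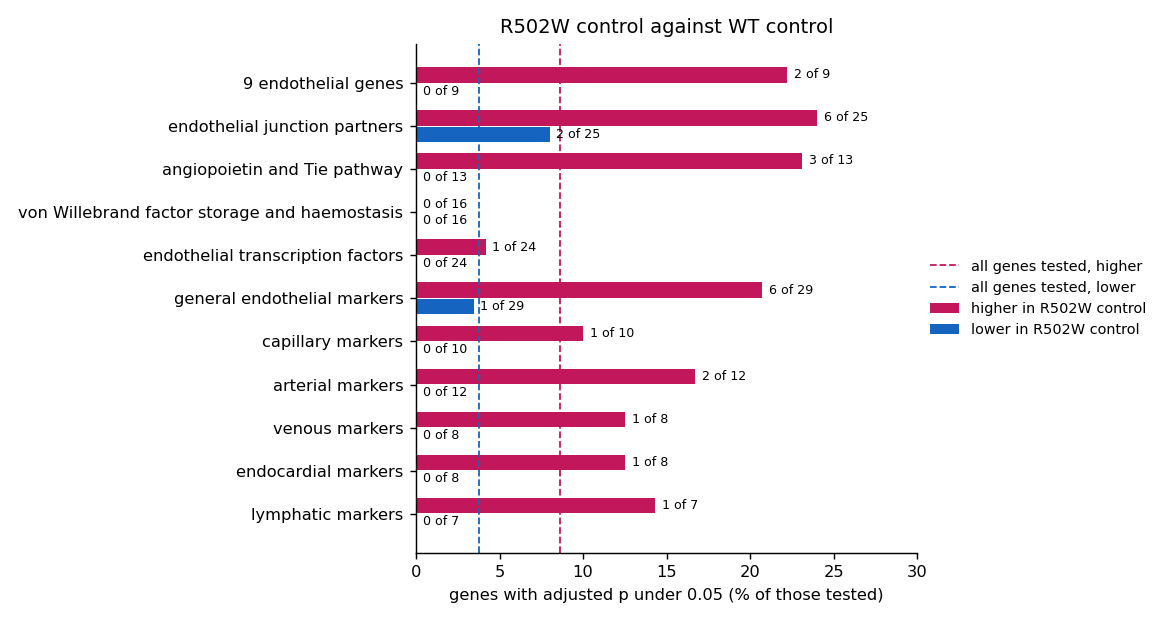
Percent of the genes tested in each list that were higher (pink) or lower (blue) in R502W control than in WT control at an adjusted p under 0.05, with the counts beside the bars and the shares over all genes tested as dashed lines (8.63% higher, 3.75% lower). The junction partners have 6 of 25 higher and 2 of 25 lower, and the von Willebrand factor list has 0 of 16 in either direction.

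The naming rule picked 15 list genes for a call by genotype. Of these, 12 kept it with the exon-length trend removed and 11 with the transcript-length trend removed. Without the 3 libraries with lung transcripts 11 kept it, and 4 did without the 3 libraries low in Bmp10. Those 4 were Ptpn11, Sema3g, Svep1 and Unc5b. The calls lost with the exon-length trend removed were those of Flt1, Ptprb and Svep1. With the transcript-length trend removed, Heg1, Ptprb, Ramp2 and Svep1 lost theirs. Over all genes the main fit called 1294 higher and 562 lower by genotype. These were 794 and 458 without the lung libraries and 286 and 118 without the 3 low in Bmp10. Under mavacamten against R502W control no gene of any of these 10 lists was called by edgeR or DESeq2, and the list with most genes at an unadjusted p under 0.05 was that of the general markers, with 4 of 29, against 525 of 15000 over all genes. Against WT control, R502W mavacamten hearts had called rises for Ptpn11 (0.57 ± 0.09, edgeR adjusted p = 0.00507), Kdr (0.63 ± 0.15, adjusted p = 0.0268) and Elk3 (0.42 ± 0.11, adjusted p = 0.0318), while the capillary genes Gpihbp1 (-0.44 ± 0.12, adjusted p = 0.0387) and Aqp1 (-0.37 ± 0.10, adjusted p = 0.0377) fell. The capillary list therefore held both a called rise and called falls in that comparison. Cyyr1, Sema3g, Unc5b and Prox1 rose as well, and Jam3 and Ramp2 fell. Of the 12 list genes that the rule picked in that comparison, 4 remained called with the exon-length trend removed (Elk3, Prox1, Ptpn11 and Ramp2). There were 2 with the transcript-length trend removed, 2 with only the 2 groups compared, 4 without the lung libraries and 0 without the 3 low in Bmp10. Over all genes the calls there went from 889 higher and 343 lower to 56 and 30 without the 3 low in Bmp10.

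Lung and lymphoid tissue hold vessels too, and the part of this RNA in the results was not tested beyond leaving libraries out. Without the 3 libraries with lung transcripts, an alternative added after the data were seen, Cldn5 had 0.81 (edgeR adjusted p = 0.0108), Vwf 0.42 (adjusted p = 0.121), Cdh5 0.27, Tek 0.21 and Tie1 0.18. The summed levels of 12 mural markers were 2958 to 3117 CPM in R502W control and 2179 to 2943 CPM in WT control, with 3 of 12 called higher (Cspg4, Notch3 and Des, the last also a cardiomyocyte gene), against 8.63% over all genes. The 8 cardiomyocyte markers summed to 64420 to 73300 CPM in R502W control and 45330 to 63980 CPM in WT control. By edgeR 2 of 8 were called higher (Ttn and Ryr2), against 8.63% over all genes. DESeq2 called 3 of these 8 higher and 1 lower, and over all 15000 genes it called 1437 higher and 1083 lower. Of 10 fibroblast markers 2 were called higher, and of 10 macrophage markers 0 were called by edgeR, 2 had an unadjusted p under 0.05 and DESeq2 called 1 lower (Cd68). Median log2 fold changes were 0.153 for mural, 0.054 for fibroblast and 0.173 for cardiomyocyte markers. They were -0.896 for mesothelial, -2.382 for lymphocyte and -0.695 for adipocyte markers. Of these last lists edgeR called 0 of 6, 2 of 8 and 0 of 6 lower, against 3.75% over all genes. The part of these cell types in the result was not tested.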

How the data were processed

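Poly(A)-selected, strand-specific libraries came from whole hearts, per the labels. The values used are the deposited expected counts per Ensembl gene in 13 libraries. RSEM, cutadapt, FastQC, DESeq2 and GRCm38 are named without versions in the submitters' processing notes, and Ensembl release 99 in the name of the table. No source used here names the aligner inside RSEM. Of the values, 5.76% were fractional. Symbols, coordinates and lengths came from the GENCODE annotation of GRCm38 by gene ID, which named 55144 of 55471 genes, and promoter windows from RefSeq (GRCm38.p6).

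The expected counts were rounded to whole numbers for edgeR 4.0.16 (R 4.3.3). filterByExpr (minimum count 10, minimum total 15) kept 15000 genes, and libraries were scaled by TMM. The quasi-likelihood fit took all 13 libraries together and gave each group its own mean. P-values were adjusted by Benjamini-Hochberg over all genes tested, with a threshold of 0.05. The biological coefficient of variation was 0.232. Intervals are at 95% confidence, not adjusted for multiple tests. CPM are on TMM-scaled library sizes, with a prior count of 2 on the log2 scale. The 22 pairs of libraries within groups differed by more than sampling noise (chi-square per degree of freedom 7.6 to 110), so all were kept. The test was also run on simulated data with the same coefficient of variation for all genes, and the outcome is not given here.

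The genes, the lists and the rule for named genes were chosen with earlier results of these data known. The rule names all 9 genes, up to 4 called genes a list, taken by smallest adjusted p, and the closest genes by correlation among those with a mean of at least 1 CPM. Cgnl1, Afdn, Jam3, Fbln5, Flt4, Cd68, the mural markers, the catenins, Tjp1, the angiopoietins, Nos3, Selp, Erg, Fli1 and the genes given for single libraries were named after their values were seen. A gene that the rule names is not reported here, though the counts of its list include it. Alternatives were RLE factors, no filter, a fit of only the groups compared, a replicate block, removal of the length trend (lowess, span 0.3) and DESeq2 1.42.0. Libraries were also left out: each in turn, the 3 low in Bmp10, and the 3 with lung epithelial transcripts.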

Additional observations from a re-analysis of the deposited data

Results flagged for a closer look

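Tek in WT control 2 was 37.8 CPM, while the other 4 WT control libraries were at 53.8 to 60.2 CPM. The gap was wide enough to pass Dixon's test for a single outlying sample in a group. It was the only 1 of 27 groups of values (9 genes in 3 groups) to do so, and chance flags about 1 in 20. The same library held lung epithelial and lymphocyte transcripts, and their part in the value was not tested. Without it the genotype estimate for Tek was 0.23.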

How the results depend on the processing

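Of the 9 genes, 2 were called by genotype. The count was 1 with no filter on low counts, 1 with the replicate block, 1 with the length trend removed and 1 with the trend on the longest coding transcript removed. The count was 1 without the 3 libraries with lung epithelial transcripts and 0 without the 3 low in Bmp10. It ran from 1 to 3 as each library was left out, with 3 only without R502W mavacamten 4, where Cdh5 passed. Against WT control, 0 of 9 were called in R502W mavacamten, but 1 with either length trend removed, 3 in DESeq2 and 0 to 1 as each library was left out, with 1 (Vwf) without R502W mavacamten 4. Against R502W control the count was 0 under all of these settings, while over all genes 0 were higher and 7 lower without the lung libraries.

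Signs turned for the estimates that follow, none of them called. Emcn by genotype was 0.09, and -0.0021 without the lung libraries. Egfl7 was 0.10 by genotype and 0.0258 against WT in treated hearts with the transcript-length trend removed. Under mavacamten, Vwf ran from -0.1208 to 0.0881 and Esam from -0.0753 to 0.0164 as each library was left out, and Vwf was 0.0026 without the lung libraries. In treated hearts against WT, Tie1 was -0.0306 without the lung libraries. Pecam1 there was -0.0145 with RLE factors, -0.0146 in DESeq2, -0.0078 with no filter, -0.0214 with only the 2 groups compared, -0.0749 and -0.0185 with the exon-length and transcript-length trends removed, -0.0515 without the lung libraries and -0.0785 to 0.0509 as each library was left out.

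Same-numbered libraries did not deviate together (correlations of -0.323 to 0.253), so the numbers were not taken as pairs. With the replicate block Vwf had 0.55 by genotype (adjusted p = 0.078). Over all genes, 1294 were higher and 562 lower by genotype, but 742 and 221 with the block and 721 and 413 with the transcript-length trend removed. There were 843 and 443 with no filter and 1437 and 1083 in DESeq2. Without the lung libraries there were 794 and 458, and without the 3 low in Bmp10 there were 286 and 118. For treated hearts against WT these were 889 and 343, but 268 and 81 with the block and 142 and 74 with only the 2 groups compared. They were 377 and 254 or 276 and 153 with a length trend removed, 527 and 213 with no filter and 1097 and 749 in DESeq2. Without the lung libraries they were 440 and 174, and without the 3 low in Bmp10 they were 56 and 30. The cause of these shifts was not tested. At 4 or 5 libraries a group the SE of the 9 genes ran from 0.08 to 0.16, which limits what could be called.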
